A study of Mus musculus with 16 samples.

Results

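Chemoattractant G-protein-coupled receptors were examined as a family of 9 genes, Fpr1, Fpr2, C3ar1, C5ar1, Ptafr, Gpr84, Ccrl2, Ccr1 and Cx3cr1, chosen by name from the 27179 gene identifiers of a table of raw read counts. All 9 passed the filter on low counts, among 12589 genes tested. The cells were the mouse macrophage line iBMDM MyD88-AGF (genotype MyD88-AGF WT), an immortalised line of bone-marrow-derived macrophages, and every group came from that line. Responders had received lipopolysaccharide (LPS, the bacterial glycolipid sensed by TLR4) at 10 ng/mL for 6 h and were sorted for high side scatter, a measure of the light deflected by structures inside a cell. Bystanders had received the same LPS and were sorted for low side scatter. The LPS pool had received the same LPS and the untreated cells none, and both passed through the sorter with no gate, after the gated cells had been collected. Each of the 4 groups had 4 libraries. Nothing in the labels says that these came from separate cultures, so the spread that p-values rest on may be technical.

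These receptors carry myeloid cells toward sites of infection and damage. Formyl peptide receptors sense formylated peptides of bacteria and mitochondria, C3ar1 and C5ar1 sense the complement fragments C3a and C5a, Ptafr senses platelet-activating factor, Gpr84 responds to medium-chain fatty acids, and Ccr1 and Cx3cr1 bind chemokines. Most of them couple to Gi proteins, whose released beta-gamma subunits activate phosphoinositide 3-kinase and phospholipase C. Ccrl2 is an atypical receptor that binds the attractant chemerin and presents it to other cells without signalling through G proteins itself.

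The libraries held 15287344 to 25193162 counts. Levels are counts per 1000000 counts (CPM), on library sizes with TMM scaling factors. All 10 macrophage markers were detected in every group, with summed levels of 3609 to 3643 CPM in untreated cells and 5045 to 5101 CPM in responders. Fpr1 and Fpr2 are also neutrophil genes, and the neutrophil markers S100a9, Ly6g and Retnlg had 0 reads in all 16 libraries, where a count of 0 allows up to 0.211 CPM. The 8 neutrophil markers summed to 0.951 to 1.49 CPM in responders and 0.287 to 0.505 CPM in bystanders. A set of 6 libraries stood apart: LPS pool 3 and 4, bystander 3 and 4, responder 1 and untreated 1 held 14.1 to 26.2 CPM of 20 neural and glial markers, against 1.99 to 3.41 CPM in the other 10. Col1a1, a fibroblast collagen gene, stood at 53.7 CPM in bystander 3 and 73.6 CPM in LPS pool 3. Each set was also fitted alone, and member values that lost or gained a call, changed sign or moved by over 1.5 times are given with the results. Of 6 dendritic cell markers, 4 were detected in bystanders and 5 in responders. Siglech had 0 reads in all groups and Flt3 had 0 in bystanders. Only 1 of the 6 reached a mean of 1 CPM in each LPS-treated group, and 0 did in untreated cells, so the sums may rest largely on 1 gene. The 6 markers summed to 0.498 to 0.926 CPM in untreated cells, 7.14 to 8.53 in bystanders, 4.29 to 5.38 in responders and 3.37 to 5.28 in the pool. Bystanders were also highest for C3ar1 and Ccr1. These sums do not show that dendritic cells were present, and any part of such cells in the results was not tested. In bulk samples, fewer cells with a transcript and less of it per cell cannot be told apart.

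Gpr84, Ptafr, C5ar1 and Fpr1 were high in responders and the LPS pool, while in bystanders they were below untreated cells or, for Fpr1, did not pass against them. Ccrl2 and Fpr2 were higher than untreated in every LPS-treated group and lowest of these in bystanders. C3ar1 and Ccr1 were also higher than untreated in every LPS-treated group, and highest in bystanders. Cx3cr1 was lowest in bystanders. In edgeR's quasi-likelihood test with Benjamini-Hochberg adjustment over all genes, 7 members were higher and 2 lower in responders than in bystanders. All 9 comparisons passed, and no library of one group reached into the other for any member. Of all genes tested, 70% were called in that comparison, 34.7% as higher and 35.3% as lower, and 63.9% had groups that did not overlap. Of the 9 members, 5 were at least 2-fold higher, beside 5.82% of all genes. The median log2 difference was 1.18 over the 9 members and -0.01 over all genes. These genes were chosen with earlier results of these data known, so such shares, here and below, are a description. Fpr1 is among the 7 and the 5, but passed the filter only through responders and the pool. Untreated and bystander libraries held at most 4 and 8 of its reads. A gene so low there is tested only if another group is higher, so its direction was partly set by the filter. Adjusted p-values given for single genes come from the same fit.

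**Figure D1:**
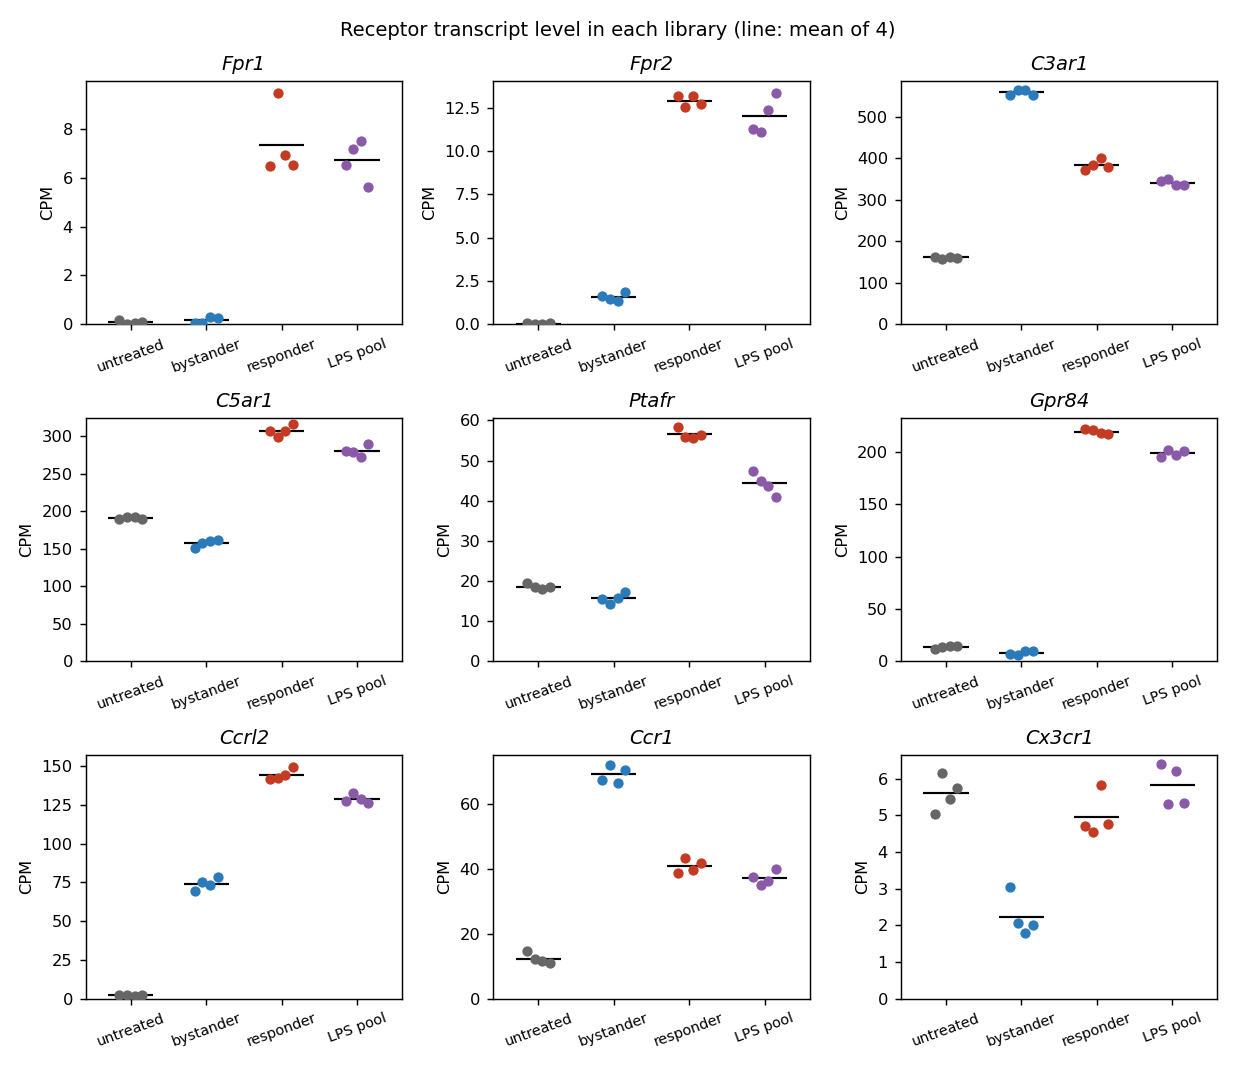
Transcript level of each receptor gene in CPM (linear axis from 0) in the 4 untreated, 4 bystander, 4 responder and 4 LPS pool libraries. Points are libraries and lines are group means; Gpr84 stands at 217 to 222 CPM in responders and 6.36 to 10.2 CPM in bystanders, while C3ar1 is highest in bystanders at 552 to 566 CPM.

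RefSeq's promoter table of GRCm38.p6 held all 9 genes, in 11 windows of 250 bases before to 50 after a transcript start. Of these, 4 are shown without their last 50 bases, since the first 2 belong to genes higher in responders than in bystanders and the last 2 to genes lower. Capitals mark matches, on either strand, to the kappaB pattern (GGG, any 5 bases, CC) or the AP-1 pattern TGANTCA.
Ccrl2 (chr9:111057519-111057768, minus strand): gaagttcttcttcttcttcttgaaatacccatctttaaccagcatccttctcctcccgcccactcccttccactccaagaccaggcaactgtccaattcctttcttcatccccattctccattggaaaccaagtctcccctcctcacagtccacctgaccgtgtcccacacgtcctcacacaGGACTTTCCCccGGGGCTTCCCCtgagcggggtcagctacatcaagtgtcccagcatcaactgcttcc
Fpr1 (chr17:17883940-17884189, minus strand): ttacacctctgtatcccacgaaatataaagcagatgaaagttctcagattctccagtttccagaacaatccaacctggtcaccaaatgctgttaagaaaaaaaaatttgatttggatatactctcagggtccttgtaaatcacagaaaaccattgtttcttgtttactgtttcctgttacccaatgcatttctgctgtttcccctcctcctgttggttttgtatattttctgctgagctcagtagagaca
C3ar1 (chr6:122856158-122856407, minus strand): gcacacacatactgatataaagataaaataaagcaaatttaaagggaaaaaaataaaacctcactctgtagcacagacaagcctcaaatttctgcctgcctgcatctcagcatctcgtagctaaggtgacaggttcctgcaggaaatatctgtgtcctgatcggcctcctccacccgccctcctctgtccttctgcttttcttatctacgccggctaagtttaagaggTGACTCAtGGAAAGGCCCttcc
Ccr1 (chr9:123968693-123968942, minus strand): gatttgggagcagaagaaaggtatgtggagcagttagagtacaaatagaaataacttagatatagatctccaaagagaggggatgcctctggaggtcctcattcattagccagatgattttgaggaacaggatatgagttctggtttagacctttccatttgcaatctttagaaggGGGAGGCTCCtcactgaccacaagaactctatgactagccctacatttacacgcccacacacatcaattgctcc
Ccrl2 held 3 kappaB matches, at positions -68, -56 and -55 from the start, the last 2 overlapping each other. C3ar1 held a kappaB match at -14 and an AP-1 match at -22, Ccr1 a kappaB match at -74, and Fpr1 none. Cx3cr1, whose window is not shown, had a kappaB match at -174. The other windows, among them 2 further starts of Ccrl2, held no match to these patterns or to the PU.1 core GAGGAAG, the C/EBP pattern TTGCNNAA or the interferon-response pattern (GAAA, any 2 bases, GAAA). For Gpr84, C5ar1 and the 2 further starts of Ccrl2, the table's start lies inside the annotated gene. Most of each of these windows is thus not sequence upstream of the gene. Across the 32851 windows of all genes, 50.8% held a kappaB match, 7.81% an AP-1 match, 13.6% a PU.1 match, 10.8% a C/EBP match and 3.44% an interferon-response match. Among the members, 4 of 11 windows held a kappaB match, in Ccrl2, C3ar1, Ccr1 and Cx3cr1.

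The formyl peptide receptor genes were the most nearly silent before LPS. Fpr1 (gene ID 14293, chromosome 17, 17876471 to 17883939), the receptor for bacterial formyl peptides, had 4, 0, 1 and 2 reads in the untreated libraries 1 to 4 and 1, 1, 8 and 6 in the bystander libraries. It had 136, 192, 139 and 140 reads in responders and 113, 151, 121 and 80 in the LPS pool. Responder and pool libraries thus all lay far above the other 2 groups, which overlapped. In CPM, Fpr1 stood at 7.35 ± 1.43 in responders and 6.71 ± 0.827 in the pool (SD, n = 4 each). The fit put responders 37.6-fold above bystanders (log2 5.23, SE 0.25, adjusted p = 1.85e-25 by edgeR). Summed reads gave a ratio of 38.5, with a 95% counting interval of 23.5 to 67.9. The SE was derived from the F statistic of the test. With 16 bystander reads it understates the error, since the fit's 95% interval (log2 4.73 to 5.74) is narrower than the counting interval. In the 10 libraries without neural transcripts, where bystanders held 2 Fpr1 reads, the ratio was 129 (35.6 to 1072) and the fit gave log2 6.88. In the 6 with them, where bystanders held 14 reads, it was 23.2 (13.3 to 43.5) and the fit gave log2 4.51.

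Against untreated cells, whose 4 libraries held 7 Fpr1 reads in all, the ratio of summed reads was 84.8 for the pool (40.8 to 212) and 91.8 for responders (44.3 to 229). These intervals cover counting error only. The ratios depended on untreated 1, with 4 of the 7 reads: without it they were 148 (50.3 to 721) for the pool and 160 (54.6 to 780) for responders. In the 10 libraries without neural transcripts they were 150 (50.9 to 734) and 167 (56.7 to 812), and in the 6 with them 36.6 (14.1 to 136) and 35.7 (13.6 to 133). Bystanders did not pass against untreated cells, with log2 1.18 (95% interval -0.07 to 2.44) and adjusted p = 0.089 by edgeR. That outcome rested on few reads: adjusted p was 0.0447 without bystander 1, 0.048 without bystander 2 and 0.0242 without untreated 1. Without untreated 1 the difference was log2 1.91, and the ratio of summed reads was 4.16 (1.19 to 22.3). The 2 bystander libraries with more reads, 3 and 4, are those with neural transcripts. In the 10 libraries without these, bystanders held 2 reads and untreated cells 3, and the difference was log2 0.33 (adjusted p = 0.835).

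Fpr2 (gene ID 14289, chromosome 17, 17887824 to 17893952), a related receptor for a wider range of peptides that include serum amyloid A and annexin A1, began as low but was raised in bystanders too. Untreated libraries 1 to 4 held 2, 0, 0 and 2 reads and bystander libraries 29, 24, 35 and 45. Responders held 277, 254, 265 and 272 reads and the pool 195, 234, 199 and 190. Bystanders lay between untreated cells and responders, with no overlap on either side. In CPM the levels were 1.58 ± 0.217 in bystanders, 12.9 ± 0.332 in responders and 12.0 ± 1.06 in the pool. Responders were 8.13-fold above bystanders (log2 3.02, SE 0.12, adjusted p = 7.17e-31). Untreated cells held 4 reads in all. Against them, the ratio of summed reads was 34.7 for bystanders (13.2 to 129), 283 for responders (110 to 1040) and 261 for the pool (102 to 960). These differences passed the edgeR fit at adjusted p = 4.28e-18, 3.82e-39 and 4.82e-38. Fpr2 passed the filter only through LPS-treated groups, so their direction was partly set by the filter. In the 6 libraries with neural transcripts these ratios were 17.6 (4.72 to 148), 145 (39.9 to 1207) and 142 (38.9 to 1173), with 2 untreated reads. Responders and the pool overlapped for Fpr1 and for Fpr2 (adjusted p = 0.585 and 0.44), with 95% intervals of -0.16 to 0.41 and -0.08 to 0.29 on the log2 scale.

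The formyl peptide receptors form a cluster of related genes, so shared reads were considered. Of the 1084 stretches of 50 bases in the Fpr2 transcript, 37.2% also occur in transcripts of Fpr1, Fpr3 or the gene model Gm5966. How far this affects Fpr2 counts depends on the handling of multiply mapped reads, which was not given. Of the 1275 stretches of Fpr1, 1 occurs elsewhere, in Fpr2. Antisense gene models overlap Gpr84 (Gm49482) and Cx3cr1 (Gm33858), and without the strand setting reads of the partners cannot be told apart. Fpr3 had no more than 4 reads in any library, and Fpr-rs3, Fpr-rs4, Fpr-rs6 and Fpr-rs7 had 0. Reads dropped as multiply mapped would be missing from these counts.

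The complement receptors moved in opposite directions across the gate. C5ar1 (gene ID 12273, chromosome 7, 16246743 to 16259540), which encodes the C5a receptor, stood at 189, 192, 193 and 190 CPM in untreated libraries 1 to 4. Bystanders were below them at 152, 158, 160 and 162 CPM, and responders above at 307, 298, 307 and 316 CPM. The pool was at 281, 278, 273 and 290 CPM. None of the 4 groups overlapped another. Responders were 1.95-fold above bystanders (307 ± 7.07 against 158 ± 4.4 CPM, adjusted p = 8.34e-43) and 1.61-fold above untreated cells (adjusted p = 6.68e-36). Bystanders were 1.21-fold below untreated cells (log2 -0.27, SE 0.02, adjusted p = 1.78e-15).

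C3ar1 (gene ID 12267, chromosome 6, 122847140 to 122856157), the C3a receptor gene, was higher than untreated in every LPS-treated group, and highest in bystanders. Untreated libraries 1 to 4 held 163, 158, 163 and 161 CPM and bystanders 552, 566, 564 and 553 CPM. Responders held 371, 383, 400 and 380 CPM and the pool 344, 350, 336 and 336 CPM. The 4 groups did not overlap, in the order bystander, responder, LPS pool, untreated. Bystanders were 3.47-fold above untreated cells (adjusted p = 2.99e-59) and responders 2.38-fold (adjusted p = 1.88e-50). Responders were 1.46-fold below bystanders (log2 -0.54, SE 0.02, adjusted p = 2.22e-32). C5ar1 outranked C3ar1 per transcript length in untreated cells, at 75.2 ± 0.688 against 37.4 ± 0.594 CPM per kb, and the order was the reverse in bystanders, at 62.1 ± 1.73 against 130 ± 1.67 CPM per kb.

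Among the receptors for lipid ligands, Gpr84 had the sharpest boundary between the gates. Gpr84 (gene ID 80910, chromosome 15, 103308233 to 103310670), a receptor for medium-chain fatty acids, stood at 11.9, 14.0, 14.5 and 14.9 CPM in untreated libraries 1 to 4. Responders held 222, 221, 218 and 217 CPM and the pool 195, 202, 197 and 201 CPM. Bystanders held only 7.33, 6.36, 10.2 and 9.96 CPM, below every untreated library. Responders were 25-fold above bystanders (219 ± 2.39 against 8.46 ± 1.9 CPM, log2 4.65, SE 0.06, adjusted p = 4.97e-24) and 15.9-fold above untreated cells (adjusted p = 8.75e-24).

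Gpr84 in bystanders was 1.58-fold below untreated cells (log2 -0.66, SE 0.10, adjusted p = 6.69e-06). The higher bystander values were those of libraries 3 and 4, which carry neural transcripts. In the 10 libraries without these, Gpr84 averaged 6.85 CPM in bystanders and 14.5 CPM in untreated cells. In the 6 with them, the averages were 10.1 CPM in 2 bystander libraries and 11.9 CPM in 1 untreated library, and the call was lost (log2 -0.24, adjusted p = 0.0703).

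Ptafr (gene ID 19204, chromosome 4, 132564067 to 132582683), the receptor gene for platelet-activating factor, had the same order of groups as Gpr84 on a smaller scale. Untreated libraries 1 to 4 held 19.5, 18.5, 18.1 and 18.4 CPM and bystanders 15.5, 14.4, 15.8 and 17.3 CPM. Responders held 58.4, 55.9, 55.6 and 56.3 CPM and the pool 47.5, 44.9, 43.8 and 41.0 CPM. None of these groups overlapped. Responders were 3.57-fold above bystanders (56.5 ± 1.24 against 15.7 ± 1.19 CPM, adjusted p = 1.12e-39) and 3.03-fold above untreated cells (adjusted p = 9.86e-38). Bystanders were 1.18-fold below untreated cells (adjusted p = 0.00054). In the 6 libraries with neural transcripts this difference was log2 -0.24 in place of -0.23 and did not pass (adjusted p = 0.0663).

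The 3 receptors of the chemokine family each had another order of groups. Ccr1 (gene ID 12768, chromosome 9, 123962126 to 123968692), a receptor for inflammatory CC chemokines, resembled C3ar1. Untreated libraries 1 to 4 held 14.8, 12.1, 11.5 and 10.9 CPM and bystanders 67.5, 72.1, 66.5 and 70.7 CPM. Responders held 38.9, 43.3, 39.7 and 41.9 CPM and the pool 37.6, 35.0, 36.2 and 40.0 CPM. Bystanders thus stood above every other library, and responders and the pool overlapped. Ccr1 was 5.61-fold above untreated cells in bystanders (adjusted p = 3.29e-40) and 3.32-fold in responders (adjusted p = 1.24e-31). Responders were 1.69-fold below bystanders (41.0 ± 2.04 against 69.2 ± 2.61 CPM, log2 -0.76, SE 0.05, adjusted p = 1.71e-20).

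Ccrl2 (gene ID 54199, chromosome 9, 111054834 to 111057518), the chemerin-presenting atypical receptor, was higher than untreated in both gates. Untreated libraries 1 to 4 held 2.58, 2.43, 1.85 and 2.13 CPM and bystanders 69.6, 75.1, 73.6 and 78.4 CPM. Responders held 142, 142, 144 and 150 CPM and the pool 128, 132, 129 and 126 CPM. The 4 groups did not overlap. Ccrl2 was 32.8-fold above untreated cells in bystanders (adjusted p = 2.64e-58) and 63.9-fold in responders (adjusted p = 1.93e-65), and responders were 1.94-fold above bystanders (145 ± 3.5 against 74.2 ± 3.65 CPM, adjusted p = 4.96e-36).

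Cx3cr1 (gene ID 13051, chromosome 9, 120048683 to 120068296), the fractalkine receptor gene and a marker of patrolling monocytes and microglia, was low everywhere. Untreated libraries 1 to 4 held 5.03, 6.16, 5.45 and 5.76 CPM, responders 4.71, 4.54, 5.82 and 4.76 CPM and the pool 6.41, 5.32, 6.21 and 5.35 CPM. Bystanders held 3.03, 2.06, 1.79 and 2.01 CPM, below every other library, while the other 3 groups overlapped. Bystanders were 2.57-fold below untreated cells (log2 -1.36, SE 0.14, adjusted p = 5.53e-13), and responders 2.27-fold above bystanders (adjusted p = 1.08e-10). Neither responders (log2 -0.18, 95% interval -0.43 to 0.07, adjusted p = 0.19) nor the pool (log2 0.05, -0.20 to 0.30, adjusted p = 0.713) passed against untreated cells. Both of these depended on the scaling: with library totals alone Cx3cr1 was lower than untreated in the pool (log2 -0.27, adjusted p = 0.0388) and in responders (log2 -0.56, adjusted p = 4.38e-05). Under that scaling the median of all genes also went down, to log2 -0.36 from -0.03 for the pool and to -0.41 from -0.02 for responders.

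**Figure D2:**
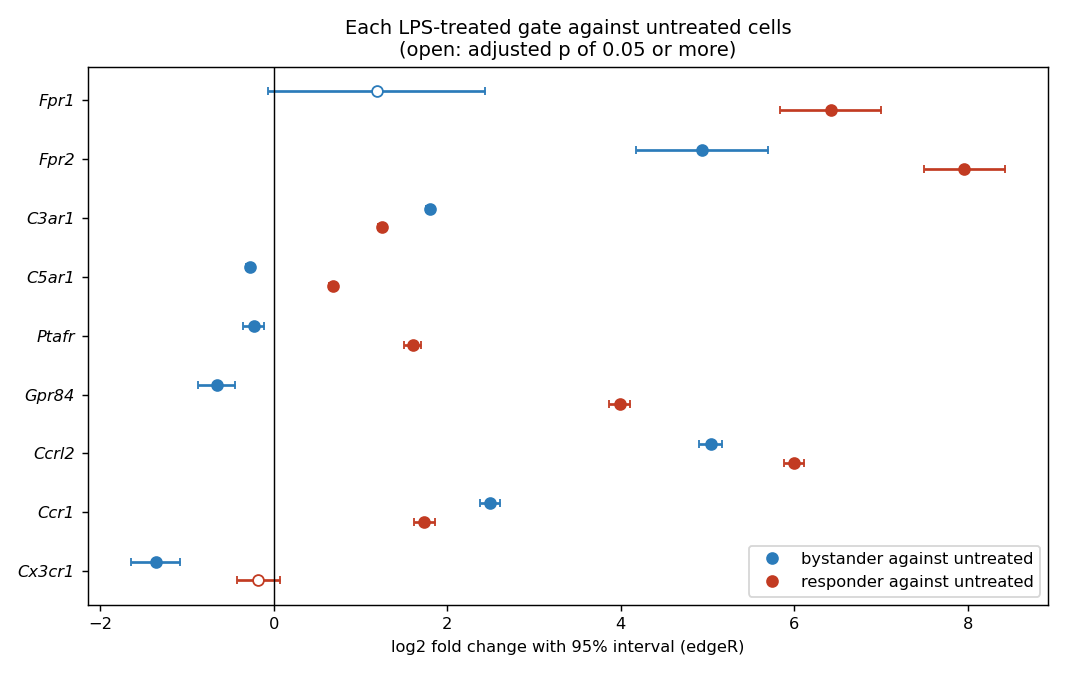
Log2 fold change of each receptor gene against untreated cells (points, with 95% intervals) in bystanders (blue) and responders (red), from the edgeR fit to 4 libraries per group. Open points did not pass. The intervals derive from the F statistic and are too narrow for Fpr1 and Fpr2, which had few untreated reads. Gpr84, Ptafr and C5ar1 lie below 0 in bystanders and above 0 in responders, and C3ar1 and Ccr1 lie further right in bystanders.

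The gates were also each set against untreated cells. These comparisons share the untreated libraries, so their values are given side by side. In responders 8 of 9 members were higher and 0 lower, beside 36.5% and 38.5% of all genes, and 7 were at least 2-fold higher, beside 10.8%. In bystanders 4 were higher (Fpr2, C3ar1, Ccrl2 and Ccr1) and 4 lower (C5ar1, Ptafr, Gpr84 and Cx3cr1), beside 34.1% and 32.9%. The 4 that were higher were all at least 2-fold, beside 7.51%. In the pool 8 were higher and 0 lower, beside 34.1% and 37.8%, with 7 of the 8 at least 2-fold, beside 9.72%. Cx3cr1 did not pass in the pool or in responders. Fpr2 is among the higher members in every LPS-treated group, and Fpr1 in responders and the pool. Untreated libraries held at most 4 reads of Fpr1 and 2 of Fpr2. Both genes passed the filter only through LPS-treated groups, so their direction in these counts was partly set by the filter.

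The ungated pool lay close to the responders. In responders against the pool, 6 members were higher (C3ar1, C5ar1, Ptafr, Gpr84, Ccrl2 and Ccr1) and 0 lower, beside 16% and 9.49% of all genes. The log2 differences ran from 0.13 for C5ar1 to 0.35 for Ptafr (1.27-fold), at 56.5 ± 1.24 against 44.3 ± 2.67 CPM (adjusted p = 6.91e-09). The count was 4 with library totals alone or with DESeq2 and 3 in the 6 libraries with neural transcripts. Those of Gpr84 and Ccr1 (adjusted p = 0.012 and 0.0378) were the ones lost with library totals alone (0.123 and 0.226) and with DESeq2 (0.183 and 0.0665). In bystanders against the pool, C3ar1 and Ccr1 were higher, by 1.64-fold and 1.86-fold, beside 34.1% of all genes. The other 7 were lower, beside 32.9%, by 1.74-fold for Ccrl2 to 22.7-fold for Gpr84 and 34.5-fold for Fpr1. For Fpr1 this was log2 -5.11, and -6.72 in the 10 libraries without neural transcripts. The direction of Fpr1 was partly set by the filter here too. For C3ar1, the pool (342 ± 6.72 CPM) lay below both gates (384 ± 12.2 and 559 ± 7.17 CPM), and for Ccr1 its mean of 37.2 ± 2.15 CPM also lay below the means of both. The pool and the untreated cells were collected after the gated cells, so gate and collection order cannot be told apart when a gated group is compared with either.

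Levels were compared between genes per kb of the longest GENCODE transcript that matches a curated RefSeq one. In untreated cells C5ar1 led at 75.2 ± 0.688 CPM per kb, followed by C3ar1 at 37.4 ± 0.594 and Gpr84 at 8.0 ± 0.782 CPM per kb. In responders Gpr84 led at 127 ± 1.39 CPM per kb, ahead of C5ar1 at 121 ± 2.78, C3ar1 at 89.1 ± 2.83 and Ccrl2 at 58.8 ± 1.42 CPM per kb. In bystanders C3ar1 led at 130 ± 1.67 CPM per kb, ahead of C5ar1 at 62.1 ± 1.73, Ccrl2 at 30.2 ± 1.48 and Ccr1 at 24.4 ± 0.921 CPM per kb, with Gpr84 at 4.9 ± 1.1 CPM per kb. Cx3cr1 stayed at 0.592 to 1.55 CPM per kb as a group mean. By this measure the leading receptor transcript differed between untreated cells, bystanders and responders. The lead of Gpr84 over C5ar1 in responders was small and depends on the transcript chosen, since each gene has 2 RefSeq transcripts. In CPM, without regard to length, C3ar1 led in responders (384 ± 12.2) as in bystanders (559 ± 7.17).

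**Figure D3:**
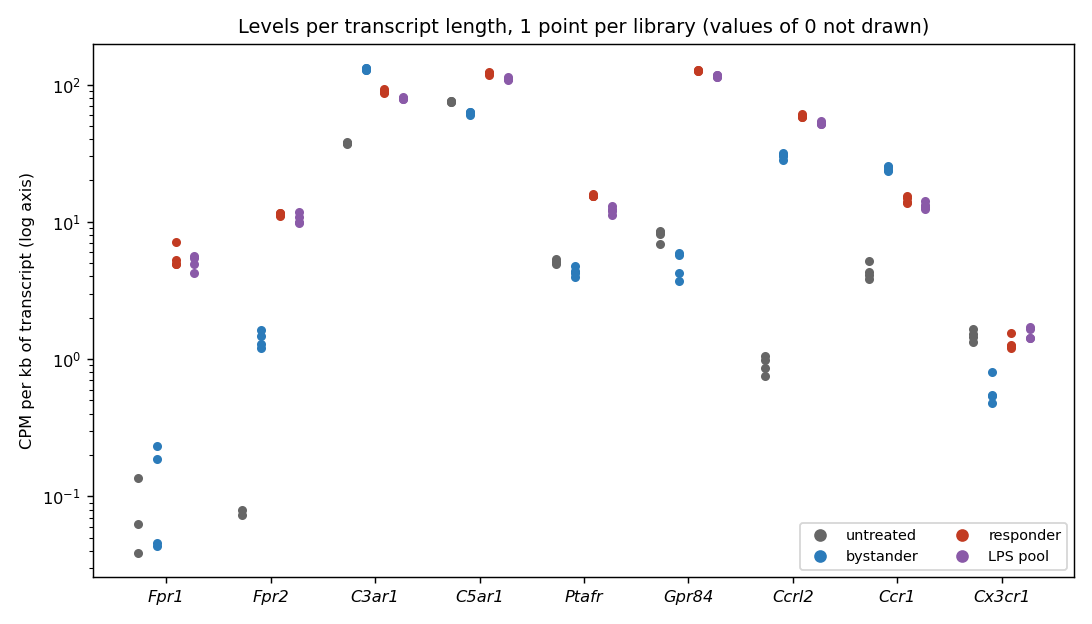
Level of each receptor gene in CPM per kb of transcript (log axis), with 1 point per library and colours for the 4 groups; libraries with 0 reads are not drawn. C5ar1 leads in untreated cells, C3ar1 in bystanders and Gpr84 in responders, at group means of 75.2, 130 and 127 CPM per kb.

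Over the 16 libraries, log2 CPM of C3ar1 and Ccr1 correlated at r = 0.993 and Gpr84 with Ptafr and C5ar1 at r = 0.987 and 0.984, while C3ar1 and C5ar1 had r = -0.03. These values mostly follow the 4 group means and are a description. By the same measure, among 9604 other genes with a mean of at least 5 CPM, the closest to Gpr84 were Lrrc25, Pou2f2 and Znrf1 (r = 0.998, 0.998 and 0.997). The closest to C3ar1 were Ifi207, Tmem229b and Flrt2 (r = 0.999 each), and to Ccr1 they were Ly6a, Trim34a and Mid1 (r = 0.996, 0.995 and 0.994). Ccrl2 was closest to Gbp3, Nmi and Mxd1 (r = 0.999 each), and Fpr2 to Tbrg1, Wfdc17 and Socs3 (r = 0.996 each). C5ar1 was closest to Rab11fip1, Ifngr2 and Stab1 (r = 0.996, 0.996 and 0.994), and Ptafr to Malt1, Riox2 and Hspa8 (r = 0.997, 0.996 and 0.996). Fpr1 and Cx3cr1 had means under 5 CPM and were left out.

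Counts for the 4 lists of related genes are read beside all genes, of which 34.7% were higher and 35.3% lower in responders than bystanders, and 34.1% and 37.8% in the pool than untreated cells. Library totals alone were run for the lists after seeing the data. Some genes of the lists, like Fpr1, passed the filter only through responders and the pool, and they are counted as tested. Of 25 genes for ligands and the enzymes that make or cut them, 21 were tested and 18 were higher and 2 lower in responders than bystanders, with a median log2 difference of 1.58. In the pool against untreated cells 18 were higher and 2 lower, with a median of 2.87. Scaling by library totals alone gave 16 higher and 5 lower in each comparison, with medians of 1.39 and 2.56. Among Ccr1 ligands, Ccl9 stood at 4639 ± 79.2 CPM in responders and 808 ± 27 in bystanders (5.74-fold, adjusted p = 9.16e-63), and Ccl6 at 193 ± 3.63 and 31.4 ± 2.42 CPM (6.08-fold, adjusted p = 1.38e-57). The receptor gene Ccr1 itself was lower in responders. Cx3cl1, the fractalkine gene, stood at 12.5 ± 0.584 CPM in responders and 0.629 ± 0.0929 in bystanders (19.3-fold, adjusted p = 7.92e-35). Lpcat2, which encodes an enzyme that makes platelet-activating factor, was 3.02-fold higher in responders than bystanders (adjusted p = 2.15e-40). The precursor gene C3, chosen after its values were seen, rose from 69.6 ± 2.36 CPM in untreated cells to 286 ± 13.5 in bystanders and 808 ± 15.1 in responders (adjusted p = 2.22e-18 between the gates), so it was highest where C3ar1 was not.

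Of 33 other chemoattractant receptor genes, 13 were tested, and 4 were higher and 7 lower in responders than bystanders, with a median log2 difference of -0.49. In the pool 5 were higher and 4 lower than in untreated cells, with a median of 0.15. With library totals alone the pool had 4 higher and 7 lower and the median turned to -0.18, while in responders against bystanders 4 were higher and 8 lower. C5ar2, the second C5a receptor, which does not couple to G proteins, stood at 6.13 ± 0.31 CPM in responders, 18.4 ± 0.599 in bystanders and 13.4 ± 1.14 in untreated cells (2.99-fold lower in responders than bystanders, adjusted p = 1.05e-25). C5ar1 and C5ar2 thus differed in opposite directions both across the gate and between bystanders and untreated cells (adjusted p = 1.16e-07 for C5ar2). Gpr183, an oxysterol receptor gene, was 2.06-fold lower in responders than bystanders (adjusted p = 3.1e-21) and S1pr2, a sphingosine-1-phosphate receptor gene, 1.41-fold lower (adjusted p = 1.94e-20). Hcar2, the nicotinic acid receptor gene, was 2.85-fold higher, at 130 ± 4.52 against 45.5 ± 1.18 CPM (adjusted p = 1.19e-43).

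Of 31 tested genes that carry the signal from G proteins to migration, 20 were higher and 8 lower in responders than bystanders, with a median log2 difference of 0.22. That count depended on the scaling: library totals alone put the median of all genes at -0.20 in place of -0.01, and then 14 were higher and 13 lower, with a median of 0.03. In the pool against untreated cells 22 were higher and 6 lower, and 15 and 14 with library totals alone. Prex1, a Rac exchange factor gene activated by G-protein beta-gamma subunits, was 1.79-fold higher (adjusted p = 8.92e-33), Rac2 1.64-fold (adjusted p = 2.1e-38) and Coro1a, an actin regulator gene, 1.79-fold (adjusted p = 4.79e-45). Of 11 tested arrestin, receptor kinase and trafficking genes, 4 were higher and 5 lower, in this comparison and in the pool against untreated cells. With library totals alone these counts were 3 and 8, and 1 and 8. The arrestin genes, whose proteins switch off and internalise active receptors, differed in direction: Arrb1 fell from 131 ± 5.75 CPM in untreated cells to 94.8 ± 2.43 in bystanders and 35.5 ± 0.534 in responders (2.68-fold between the gates, adjusted p = 3.24e-40). Arrb2 stood at 155 ± 4.92 CPM in bystanders, 200 ± 4.1 in untreated cells and 245 ± 3.09 in responders (1.57-fold, adjusted p = 1.76e-33). Grk2 was 1.21-fold (adjusted p = 3.42e-16) and Rab11a, a recycling endosome gene, 1.40-fold higher in responders (adjusted p = 3.2e-23).

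**Figure D4:**
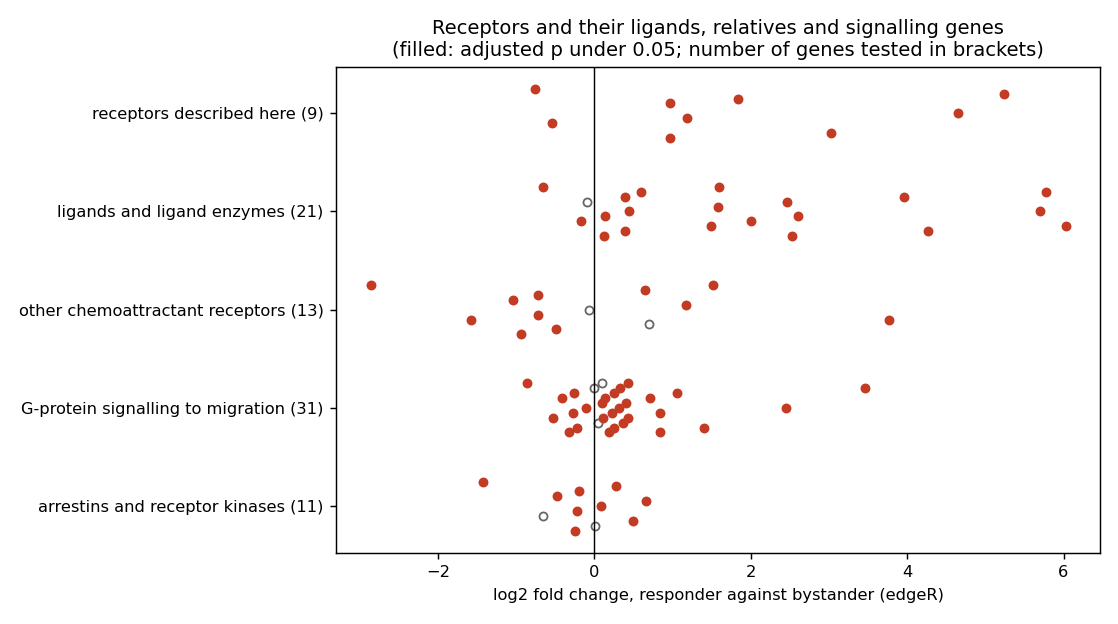
Log2 fold change of responders against bystanders (4 libraries each, edgeR) for the 9 receptor genes and for every tested gene of 4 lists; each point is a gene and filled points passed. The receptors spread from -0.76 for Ccr1 to 5.23 for Fpr1, and the ligand genes have a median of 1.58.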

How the data were processed

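RNA was sequenced from 16 libraries of 1 mouse macrophage line, in 4 groups of 4 taken from the labels. The authors deposited raw counts per gene. The tools listed in the submitters' processing notes are HISAT2 2.2.2, featureCounts 2.1.1, fastp 1.1.0 and cutadapt 3.7, with the build GRCm38 (mm10). The annotation, the strandedness and the handling of multiply mapped reads were not given in the sources used here. Of 27179 identifiers, 25275 matched RefSeq symbols of GRCm38.p6, and the other 1904, with 0.399% of counts, stayed in under their numbers. The table has 3 empty columns.

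The fit used edgeR 4.0.16 and R 4.3.3 (filterByExpr, TMM, robust quasi-likelihood, group means of all 16 libraries, no covariate). Tests were two-sided, with Benjamini-Hochberg adjustment over 12589 genes, called at adjusted p under 0.05. Tested on simulated counts for responder against bystander (12267 genes), the fit recovered 73% of 100 genes changed by 0.5 and 93% of 100 changed by 1 on the log2 scale. Only these genes were changed, evenly up and down, on the bystander profile, and genes with few bystander reads were not drawn. In the data 70% of genes were called, so these rates need not hold there, nor for Fpr1. Chi-square per degree of freedom between the 2 libraries of a replicate pair was 1.61 to 3.12 over 24 pairs, so none was counted as a duplicate.

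The members and lists were chosen with earlier results of these data known. Besides the members, the text names from each list the 4 genes of smallest p for responder against bystander and the 2 for pool against untreated, with a mean of at least 5 CPM. A gene that this rule names is not reported here. The text also names the 3 genes closest to each member by correlation. Alternatives were library totals alone, DESeq2 1.42.0, no filter, only the groups compared, a replicate block, and leaving out each library. Replicate numbers were checked by the correlation of deviations from the group means between same-numbered libraries. All 4 exceeded 0.1 for bystander with pool (0.39 to 0.47) and for untreated with responder (0.17 to 0.60). The libraries with neural transcripts carry the same numbers in each of these pairs of groups (3 and 4, and 1). In the other pairs of groups only number 2, which has no neural transcripts in any group, correlated above 0 (0.24 to 0.29). Shared cultures and shared neural transcripts thus cannot be told apart here. The labels do not say that the numbers pair the libraries. A split on neural transcripts was made on the 20 markers of the list with a mean under 2 CPM. That version was chosen after seeing the data, since the planned one separated the 4 untreated libraries.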

Additional observations from a re-analysis of the deposited data

Results flagged for a closer look

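Fpr1 in responder 2 stood at 9.48 CPM, apart from the other 3 responder libraries, whose nearest value was 6.92 CPM. Without that library the difference between responders and the pool was log2 -0.022, against 0.12 with it. Cx3cr1 in responder 3 stood at 5.82 CPM, apart from the next value of 4.76 CPM. The gaps took 0.85 and 0.831 of their group's range, above Dixon's critical value at 95%. These were 2 of 36 groups examined, and chance alone gives about 1 in 20.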

How the results depend on the processing

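Of 809 values recomputed for the 54 member comparisons, 786 kept their direction and side of the threshold, 16 lost the call, 4 gained it and 3 changed sign. For responders against bystanders, all 7 higher and 2 lower members passed under every alternative run. The changes of sign were Cx3cr1 in the pool against untreated with library totals alone (-0.27), and Fpr1 in responders against the pool without responder 2 (-0.022, in a range up to 0.18 over the libraries left out) and in the 6 libraries with neural transcripts (-0.024). With library totals alone, the members lower than untreated numbered 1 in place of 0 in the pool and in responders. Among the 6 libraries with neural transcripts are 1 untreated and 1 responder library, each assumed to vary like the rest. There the members lower in bystanders than untreated numbered 2 in place of 4, those higher in responders than the pool 3 in place of 6, and all genes called in the latter comparison 867 in place of 3205. The cause of these changes was not tested. With library totals alone the share of calls that were higher fell from 49.5% to 27.8% for responders against bystanders, from 47.4% to 21.6% for the pool, from 50.9% to 27.5% for bystanders and from 48.7% to 21.7% for responders against untreated cells. It fell from 62.7% to 30.6% for responders against the pool and rose from 50.9% to 68.4% for bystanders against the pool. With the replicate number as a replicate block, 7 members were higher and 2 lower in responders than bystanders, 8807 genes were called in place of 8813, and no member call changed in any comparison. For the comparisons in which all same-numbered libraries correlated above 0.1, the replicate block gave 9439 genes in place of 9447 (responders against untreated) and 8386 in place of 8440 (bystanders against the pool). In the other 4 comparisons the correlations of same-numbered libraries ran from -0.47 to 0.29. Over all groups, 4 of 16 libraries correlated best with their own number. Ccr1 in responders against the pool lost its call without LPS pool 1, 2 or 3 or responder 2 or 4 (adjusted p up to 0.177), and Gpr84 without LPS pool 1 (0.0515). Values of Fpr1 and Fpr2 that moved by over 1.5 times in the libraries with or without neural transcripts, or without untreated 1, are given with these genes. The split planned on the whole neural list was not run, since Mbp and Map2, which these cells express, carried it. Depth limits Fpr1 and Fpr2 in untreated cells, with 7 and 4 reads in all.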

Other observations

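Ligand genes outside the naming rule, chosen after their values were seen, also differed between the gates. Saa3, whose product is an Fpr2 ligand, averaged 2519 ± 43.2 CPM over the 4 responder libraries and 45.4 ± 28.9 CPM (SD) over the 4 bystander libraries, a 51.8-fold difference (adjusted p = 1.13e-10 by edgeR). Bystander libraries 1 to 4 held 20.8, 19.9, 68.8 and 71.9 CPM, against 15.3 to 17.8 CPM in untreated cells. Ccl5, a chemokine gene, stood at 937 ± 35.2 CPM in responders (54.9-fold above bystanders, adjusted p = 7.77e-12), and bystander libraries 1 to 4 held 6.3, 6.36, 24.3 and 25.2 CPM. For both genes, bystander 3 and 4, the libraries with neural transcripts, were the higher ones, as for Gpr84 and Fpr1, and the part of those transcripts was not tested.

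Ccl3, a Ccr1 ligand gene, was raised in both gates, from 259 ± 5.71 CPM in untreated cells to 1047 ± 36 in bystanders and 5754 ± 164 in responders (5.49-fold between the gates, adjusted p = 3.96e-30). Anxa1, whose product is a formyl peptide receptor ligand that limits inflammation, differed less, at 313 ± 6.15, 404 ± 7.36 and 551 ± 11.6 CPM in the same order (1.36-fold between the gates, adjusted p = 5.38e-28).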
